A study of Mus musculus with 12 samples.

Results

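The genes described here serve the recruitment of neutrophils. They are 9 of the 15774 genes in the deposited counts, taken by symbol as rows of the count table: the ligand genes Cxcl1, Cxcl2, Cxcl5 and Csf3, and the neutrophil-borne genes Csf3r, Cxcr2, S100a8, S100a9 and Prok2. All 9 passed the filter on low counts, which kept 15635 genes. RNA was sequenced from cortical astrocytes of wild-type C57BL/6J mice, isolated by FACS from cerebral tissue. The 12 libraries form groups of 2: mice on day 1, day 3, day 7, day 21 and day 60 after focal ischemic stroke, and sham mice. For the stroke the distal middle cerebral artery was tied off permanently and both common carotid arteries were then closed for 7 min. Sham mice received skull surface lesions without occlusion of an artery, and the time of their collection, the surface marker of the sort, and the age and sex of the mice are not stated. Replicates are not stated to come from separate animals, so the p-values measure the spread between these libraries, which may be technical.

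Neutrophils are short-lived white blood cells that enter the brain from blood vessels and the meninges within the first days after a stroke. CXCL1, CXCL2 and CXCL5 are chemokines of the class with a glutamate-leucine-arginine (ELR) motif, which draw neutrophils through the receptor CXCR2. Granulocyte colony-stimulating factor, the product of Csf3, acts through CSF3R on the bone marrow to raise the output and release of neutrophils. S100A8 and S100A9 pair to form calprotectin, a calcium- and zinc-binding protein that fills the cytosol of neutrophils. Prokineticin 2, the product of Prok2, is a small secreted peptide that neutrophils make and that also occurs in some neurons. Astrocytes and vessel cells are known to make the ligands under inflammatory signals, while CXCR2, CSF3R and the S100 proteins are chiefly known from myeloid cells, although calprotectin, CSF3R and CXCR2 occur outside them too.

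The coding sequences of the 3 chemokine genes are shown because reads of near relatives can be confused, and because the results turn on how differently these 3 genes behaved. All lie on the plus strand of chromosome 5 in the mm10 build, Cxcl5 at chr5:90759360-90761624, Cxcl1 at chr5:90891241-90893115 and Cxcl2 at chr5:90903871-90905938. Each line gives 180 bases of the coding sequence of a GENCODE transcript, beginning 30 bases before the part in capitals. Capitals mark the codons of the ELR motif, which begin at base 88 of the coding sequence in Cxcl1, 97 in Cxcl2 and 148 in Cxcl5.
Cxcl1: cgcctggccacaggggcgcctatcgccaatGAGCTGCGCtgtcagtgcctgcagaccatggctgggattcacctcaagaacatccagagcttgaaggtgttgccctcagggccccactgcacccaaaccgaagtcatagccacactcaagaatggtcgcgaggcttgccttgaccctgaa
Cxcl2: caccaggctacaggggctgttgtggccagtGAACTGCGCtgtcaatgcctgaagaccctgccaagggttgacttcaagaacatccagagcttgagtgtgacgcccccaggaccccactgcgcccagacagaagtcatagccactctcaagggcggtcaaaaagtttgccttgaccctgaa
Cxcl5: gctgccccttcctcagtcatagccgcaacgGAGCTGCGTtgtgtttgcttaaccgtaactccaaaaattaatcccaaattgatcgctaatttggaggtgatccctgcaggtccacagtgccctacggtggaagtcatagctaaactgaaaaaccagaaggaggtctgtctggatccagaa
Over the whole coding sequences, Cxcl1 and Cxcl2 had the same base at 229 of 291 aligned positions (78.7%), with 21 bases as their longest identical run. Cxcl5 shared 68.4% of aligned bases with Cxcl1 and 64.7% with Cxcl2, and its longest identical run with either was 11 bases. Over whole transcripts, 0 of the 50-base words of Cxcl1, Csf3, S100a8, S100a9 and Prok2 occurred in another gene. For Cxcl2 the shared part was 5.84%, all of it with Cxcl3, a neighbouring chemokine gene, for Cxcr2 6.68%, for Csf3r 10.7% and for Cxcl5 0.693%. How reads that match several genes were counted is not stated, so the counts of Cxcl2, Cxcr2 and Csf3r carry that uncertainty. No exon of the 9 genes overlapped another gene on either strand.

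Upstream sequence was available for 7 of the 9 genes, the exceptions being Cxcl5 and Csf3. The 250 bases before the RefSeq start sites (GRCm38.p6) are shown for Cxcl1 and Cxcl2, 2 neighbouring genes with a shared motif, and for Prok2, which was highest on day 21, as Cxcl5 was. They span chr5:90890995-90891244 (plus strand), chr5:90903649-90903898 (plus strand) and chr6:99726393-99726642 (minus strand). Capitals mark a kB-type match in the chemokine genes and an AP-1-type match in Prok2.
Cxcl1: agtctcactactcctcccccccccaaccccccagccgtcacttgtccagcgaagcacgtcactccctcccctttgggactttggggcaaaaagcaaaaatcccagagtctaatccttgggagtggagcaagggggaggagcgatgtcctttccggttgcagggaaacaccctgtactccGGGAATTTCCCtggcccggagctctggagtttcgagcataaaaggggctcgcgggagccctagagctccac
Cxcl2: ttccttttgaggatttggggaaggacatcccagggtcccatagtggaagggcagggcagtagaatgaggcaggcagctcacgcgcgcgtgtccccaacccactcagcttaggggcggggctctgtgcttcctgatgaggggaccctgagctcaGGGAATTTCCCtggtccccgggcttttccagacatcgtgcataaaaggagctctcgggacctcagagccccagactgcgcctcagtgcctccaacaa
Prok2: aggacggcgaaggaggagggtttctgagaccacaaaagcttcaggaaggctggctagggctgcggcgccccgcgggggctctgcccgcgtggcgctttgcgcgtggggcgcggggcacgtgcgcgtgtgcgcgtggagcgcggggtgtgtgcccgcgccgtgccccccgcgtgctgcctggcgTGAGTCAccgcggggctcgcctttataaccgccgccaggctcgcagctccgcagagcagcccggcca
Both chemokine windows held GGGAATTTCCC, in which the kB-type motif, GGGA and TTCC with any 2 bases between them, matches on each strand with the 2 matches overlapping. It began 71 bases before the start site of Cxcl1 and 97 bases before that of Cxcl2. Searched on both strands, this motif occurred in 1.21% of 32851 windows of the same length, and among the other 5 genes in Csf3r only. The window of Prok2 held TGAGTCA, a match to the AP-1-type motif TGANTCA, which occurred in 6.75% of the windows. A C/EBP-type motif (TTNNGNAA) and a TATA motif (TATAAA) were also searched and are not marked. They occurred in 36.8% and 12.4% of the windows. Both matched in the windows of Prok2 and S100a8, and the C/EBP-type motif also in those of Cxcl2 and S100a9. These matches describe the letters and show no binding.

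The replicate 1 libraries were shallow, with 13006008 to 16575045 counts, and the replicate 2 libraries deep, with 97056596 to 156128922, so low values rest mainly on replicate 2. Levels are given in CPM, counts scaled to library size with trimmed-mean (TMM) factors, and levels of different genes are compared only per kilobase of the exons of coding transcripts (CPM per kb). A count of 3, used as the floor where a gene had 0 counts, equals 0.167 to 0.202 CPM in the replicate 1 libraries and 0.0218 to 0.0289 CPM in those of replicate 2. The astrocyte markers, 15 of 15 measured, made up 0.141% to 0.236% of counts on day 7 and 0.997% to 1.20% in sham, and Aldh1l1 averaged 26.9 ± 4.36 CPM in day 7 libraries and 196 ± 66.2 CPM in sham libraries (SD, n = 2 each). In day 1 replicates 1 and 2 the astrocyte share was 0.654% and 1.98%. Meningeal fibroblast markers, 13 of 13 measured, made up 8.18% to 19.9% of counts on day 7 and 0.00898% to 0.00975% in sham. They held 0.23% to 0.30% on day 1, 0.725% to 2.48% on day 3, 3.16% to 4.94% on day 21 and 2.06% to 2.71% on day 60. Neuron markers held 0.887% to 1.02% in sham and 0.113% to 0.123% on day 21. Oligodendrocyte markers held 0.913% to 1.045% in sham and 0.137% to 0.205% on day 21. Microglia markers, 12 of 12 measured, stood at 0.359% to 0.429% on day 3 and 0.305% to 0.570% on day 7, against 0.0680% to 0.0788% in sham. The part of these cells in the results below was not tested, and in sorted bulk RNA a change in the number of cells of a type and a change in RNA per cell cannot be told apart.

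Compared with sham, neutrophil ligand genes were high at nearly every time after stroke, while all 5 neutrophil-borne genes passed as higher on day 3. The threshold was an adjusted p under 0.05 (Benjamini-Hochberg) in edgeR's quasi-likelihood F test over 15635 genes, and genes past it are called. On day 1, 6 of the 9 genes were called higher and 0 lower, where 30.5% of all genes were called and 16.7% were called higher. On day 3 all 9 were higher, against 32.2% of all genes called and 18% called higher. On day 7, 5 were higher and S100a9 was lower, against 43% of all genes called, 23.2% higher and 19.8% lower. On day 21, 7 were higher, against 33.2% called and 17.8% called higher, and on day 60 5 were higher, against 31.5% and 16.8%. Split by role, the numbers of the 4 ligand genes called higher on days 1, 3, 7, 21 and 60 were 4, 4, 3, 4 and 4, with Cxcl5 the exception on day 7. For the 5 neutrophil-borne genes they were 2, 5, 2, 3 and 1. Prok2 was among these at every time and was the only one on day 60. Whether neutrophils carried these transcripts here was not tested. Without sham replicate 1 all 9 genes were called higher on day 21. The median log2 fold change of the 9 genes was 6.14 on day 1, 5.89 on day 3, 2.11 on day 7, 7.27 on day 21 and 4.41 on day 60, where that of all genes tested lay between 0.0054 and 0.16. With Csf3, which had 0 counts in sham, at its bound, the median was 6.55 on day 21, 2.09 on day 7 and the same at the other 3 times. The 5 comparisons share the sham libraries. Without either day 7 library 3 of the 9 genes were called on day 7.

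**Figure D1:**
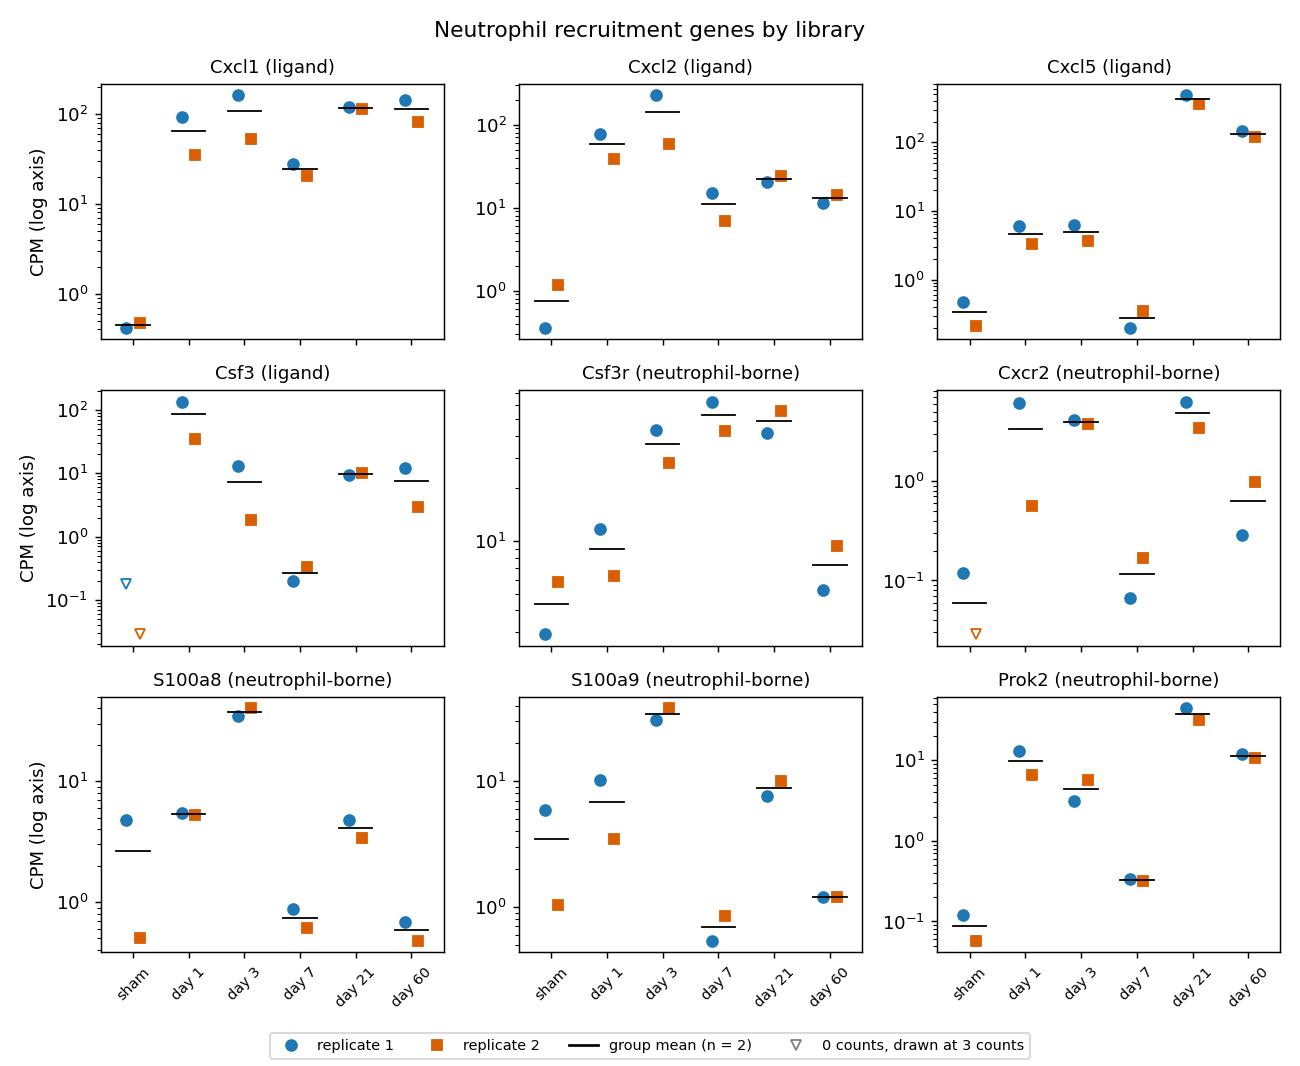
Level of each gene in every library, in CPM on a log axis, from sham to day 60. Circles are replicate 1, squares replicate 2, bars the group mean of 2 libraries, and open triangles libraries with 0 counts drawn at 3 counts; Cxcl5 and Prok2 are highest on day 21, S100a8 and S100a9 on day 3, and Csf3 on day 1.

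Cxcl1 and Cxcl2 were near absent in sham and were higher at all 5 times after stroke. Cxcl1 had 0.418 and 0.471 CPM in the sham libraries, 92.9 and 34.99 on day 1, 161 and 52.6 on day 3, 28.0 and 20.1 on day 7, 120 and 113 on day 21, and 144 and 82.2 on day 60. Every library after stroke thus lay above both sham libraries, day 7 lay below every library of the other times after stroke, and replicates lay furthest apart on days 1, 3 and 60. The log2 fold changes against sham were 7.14 ± 0.77 (SE) on day 1, 7.89 ± 0.79 on day 3, 5.73 ± 0.72 on day 7, 8.01 ± 0.79 on day 21 and 7.96 ± 0.79 on day 60, with adjusted p between 0.000125 and 0.000618. The means of days 21, 60, 3 and 1 follow each other in that order, and neighbours in it did not differ beyond their spread (adjusted p 0.612 to 1), and the sham mean rests on 56 counts.

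Cxcl2 took a different course from Cxcl1 after day 7. Its levels were 0.358 and 1.15 CPM in sham, 76.6 and 38.9 on day 1, 226 and 59.2 on day 3, 14.9 and 6.95 on day 7, 20.5 and 23.8 on day 21, and 11.5 and 14.4 on day 60. The day 1 and day 3 libraries were the highest 4, and no library after stroke overlapped with sham. Against sham the log2 fold change was 6.14 ± 0.84 on day 1, 7.44 ± 0.89 on day 3, 3.73 ± 0.76 on day 7, 4.76 ± 0.79 on day 21 and 3.98 ± 0.76 on day 60, with adjusted p between 0.00045 and 0.00417. Per kilobase, the ratio of Cxcl2 to Cxcl1 was 0.439 and 1.26 in sham, 0.422 and 0.570 on day 1, 0.717 and 0.577 on day 3, 0.273 and 0.177 on day 7, 0.0876 and 0.109 on day 21, and 0.0409 and 0.0896 on day 60. After stroke it was highest on day 3, and the 4 libraries of days 21 and 60 were the lowest. Sham replicate 2 was above all 11 other libraries, although the sham ratios rest on few counts.

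Cxcl5 fell back on day 7 and reached its highest levels on days 21 and 60. Its levels were 0.478 and 0.212 CPM in sham, 6.00 and 3.34 on day 1, 6.26 and 3.62 on day 3, 0.202 and 0.353 on day 7, 486 and 358 on day 21, and 147 and 121 on day 60. On day 7 it overlapped with sham, on 3 and 38 counts. All 4 libraries of days 21 and 60 stood far above the other 8, with day 21 the highest. Against sham it was 13.5-fold higher on day 1 (3.89 ± 0.56 in log2 terms, adjusted p = 0.00175) and 14.3-fold on day 3 (3.98 ± 0.56, adjusted p = 0.000907). On day 7 the log2 difference was -0.05 ± 0.57 (adjusted p = 0.958), and its sign changed to 0.21 with the replicate number as a block, to 0.50 without sham replicate 1 and to 0.18 without day 7 replicate 1. The level averaged 422 ± 90.9 CPM on day 21 and 0.345 ± 0.188 CPM in sham (SD, n = 2 each), which is 1224-fold (log2 fold change 10.40 ± 0.70, adjusted p = 4.26e-05). On day 60 it was 389-fold that of sham (8.75 ± 0.66, adjusted p = 4.7e-05). The means of days 21 and 60 did not pass the test against each other (adjusted p = 0.633), although their libraries did not overlap.

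Csf3 had its highest mean on day 1, and the difference from day 21, the next highest, did not pass (adjusted p = 0.0881). It had 0 counts in both sham libraries, then 135 and 35.5 CPM on day 1, 12.97 and 1.84 on day 3, 0.202 and 0.335 on day 7, 9.52 and 9.95 on day 21, and 12.3 and 2.97 on day 60. The day 1 libraries were the highest 2, the day 7 libraries held 3 and 36 counts, and replicates differed most on days 1, 3 and 60. With a floor of 3 counts per sham library, Csf3 was at least 818-fold higher on day 1, at least 71.2-fold on day 3, at least 2.58-fold on day 7, at least 93.6-fold on day 21 and at least 73.5-fold on day 60. Adjusted p was 0.00168, 0.00285, 0.0308, 0.00215 and 0.00282 at these times. The call on day 7 was lost without sham replicate 1 (adjusted p = 0.0603), sham replicate 2 (0.222), day 7 replicate 1 (0.0501) or day 7 replicate 2 (0.138).

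The make-up of the ligand level, summed per kilobase over the 4 genes, changed over time. Csf3 held 40.1% and 29.6% of it in the day 1 libraries and at most 3.37% in any other. Cxcl1 and Cxcl2 together held nearly all of it on days 3 and 7, with Cxcl1 at 78% and 83.4% in the day 7 libraries. Cxcl5 held 68.2% and 62.2% on day 21 and 36.1% and 44.4% on day 60, against 1.60% and 2.50% on day 1, 1.31% and 2.53% on day 3, and 0.340% and 0.886% on day 7. The Cxcl5 level per kilobase was 2.45 and 1.92 times that of Cxcl1 on day 21 and 0.620 and 0.889 times on day 60. Replicates agreed in the leading gene at each time after stroke: Cxcl1 on days 1, 3, 7 and 60 and Cxcl5 on day 21. These shares are descriptions of single libraries, and in sham they rest on 21 and 191 counts of the 4 genes.

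**Figure D2:**
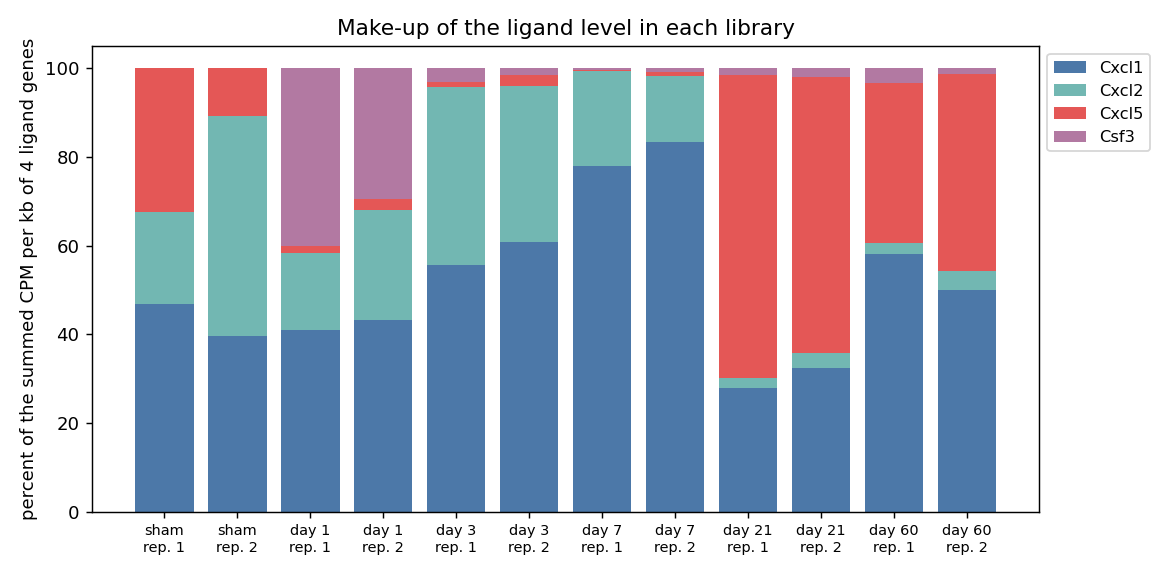
Percent of the summed CPM per kb of the 4 ligand genes in each library, from sham to day 60, with 1 stacked bar per library. Csf3 fills 40.1% and 29.6% of the day 1 bars, and Cxcl5 68.2% and 62.2% of the day 21 bars.

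Of the receptors, Csf3r was broadly high from day 3 to day 21. Its levels were 2.93 and 5.84 CPM in sham, 11.7 and 6.26 on day 1, 43.2 and 28.0 on day 3, 62.5 and 42.7 on day 7, 41.3 and 55.2 on day 21, and 5.21 and 9.35 on day 60. The libraries of days 3, 7 and 21 stood above all 6 others, and those of day 60 overlapped with sham. It was higher than sham 8.13-fold on day 3 (log2 fold change 3.01 ± 0.52, adjusted p = 0.00259), 12-fold on day 7 (3.57 ± 0.54, adjusted p = 0.00062) and 11.01-fold on day 21 (3.45 ± 0.53, adjusted p = 0.00127). On day 1 the log2 difference was 1.01 ± 0.49 (adjusted p = 0.144) and on day 60 0.72 ± 0.49 (adjusted p = 0.284). Csf3r is also known from monocytes and microglia, whose markers held their largest shares of counts on days 3 and 7. On day 21 both marker sets were lower than on day 7, while the Csf3r libraries of these 2 times overlapped. Microglia markers held 0.0680% to 0.0788% of counts in sham, 0.0400% to 0.0403% on day 1, 0.359% to 0.429% on day 3, 0.305% to 0.570% on day 7, 0.183% to 0.209% on day 21 and 0.0809% to 0.0999% on day 60. Monocyte and macrophage markers, 14 of 15 measured, held 0.00306% to 0.0246% in sham, 0.0576% to 0.0995% on day 1, 0.418% to 0.680% on day 3, 0.403% to 0.442% on day 7, 0.151% to 0.227% on day 21 and 0.156% to 0.177% on day 60. Their part in the Csf3r levels was not tested.

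Cxcr2, the receptor of the 3 chemokines, was the scarcest of the 9 genes. Its levels were 0.119 and 0 CPM in sham (2 and 0 counts), 6.06 and 0.557 on day 1, 4.11 and 3.77 on day 3, 0.0672 and 0.167 on day 7 (1 and 18 counts), 6.27 and 3.39 on day 21, and 0.286 and 0.986 on day 60. The day 7 libraries were the lowest after stroke and replicate 1 lay below sham replicate 1, and the 2 day 1 libraries lay far apart. The ratio of pooled counts to sham, with its 95% counting interval, was 81.2 (22.1 to 676) on day 1, 230 (63.4 to 1907) on day 3, 9.37 (2.26 to 82.9) on day 7, 229 (63.0 to 1894) on day 21 and 54.8 (14.9 to 457) on day 60. Pooling gives most weight to the deep replicate 2 libraries, and both sham counts came from the shallow replicate 1. Mean CPM was 0.0597 in sham, 3.31 on day 1, 3.94 on day 3, 0.117 on day 7, 4.83 on day 21 and 0.636 on day 60. These means differ less from sham than the pooled ratios do. The intervals leave out the spread between libraries. The edgeR calls were higher on day 1 (adjusted p = 0.0206), day 3 (0.0166) and day 21 (0.0138), and Cxcr2 did not pass on day 7 (0.378) or day 60 (0.083; 0.0421 with the replicate block and 0.0426 without sham replicate 1). Without sham replicate 2 all 3 calls were lost, with adjusted p of 0.102 on day 1, 0.0874 on day 3 and 0.0713 on day 21. The day 1 call was lost also without day 1 replicate 1 (0.131) and with only the 2 groups in the fit (0.0693), and the day 21 call without day 21 replicate 1 (0.0553).

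S100a8 and S100a9, the calprotectin genes and neighbours on chromosome 3, peaked together on day 3. S100a8 had 4.78 and 0.5002 CPM in sham, 5.45 and 5.23 on day 1, 34.7 and 40.1 on day 3, 0.873 and 0.605 on day 7, 4.82 and 3.40 on day 21, and 0.687 and 0.479 on day 60. S100a9 had 5.91 and 1.04 CPM in sham, 10.3 and 3.47 on day 1, 30.8 and 38.0 on day 3, 0.537 and 0.846 on day 7, 7.56 and 9.98 on day 21, and 1.20 and 1.20 on day 60. The day 3 libraries stood above all 10 others for both genes, and the 2 sham libraries lay far apart for both, with replicate 1 the higher. The day 3 mean did not pass against the next highest for S100a8 (day 1, adjusted p = 0.103) or S100a9 (day 21, adjusted p = 0.168). On day 3 S100a8 was 14.2-fold higher than sham (log2 fold change 3.87 ± 0.86, adjusted p = 0.00806) and S100a9 9.90-fold (3.34 ± 0.80, adjusted p = 0.0111). Both calls held under each of the 18 alternatives tried. On day 7 S100a9 averaged 0.692 ± 0.218 CPM, against 3.48 ± 3.45 CPM in sham (SD, n = 2 each), a log2 difference of -2.25 ± 0.79 (adjusted p = 0.0423), and S100a8 gave -1.82 ± 0.83 (adjusted p = 0.102).

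The remaining comparisons of the calprotectin genes with sham depended on which sham library was used. Without sham replicate 1, S100a8 passed as higher on day 1 (3.41 in log2 terms, adjusted p = 0.0158) and on day 21 (3.03, adjusted p = 0.0125), and so did S100a9 (2.72 with adjusted p = 0.0446, and 3.08 with 0.0269). With all libraries the values were 1.06 ± 0.79 and 0.68 ± 0.79 for S100a8 on days 1 and 21 (adjusted p = 0.33 and 0.539), and 1.01 ± 0.75 and 1.37 ± 0.75 for S100a9 (adjusted p = 0.33 and 0.185). The lower S100a9 on day 7 was lost without sham replicate 1 (adjusted p = 0.575), day 7 replicate 1 (0.171), day 7 replicate 2 (0.114), day 21 replicate 2 (0.0569) or day 60 replicate 2 (0.0543), and with only the 2 groups in the fit (0.0817). On day 60 neither gene passed (log2 differences of -2.17 ± 0.84 and -1.50 ± 0.77, adjusted p = 0.0745 and 0.162 for S100a8 and S100a9). Without sham replicate 2 both passed as lower there (adjusted p = 0.00674 and 0.0385), as did S100a8 on day 7 (0.00453), and without sham replicate 1 the day 60 differences were 0.18 and 0.21. Signs turned also for S100a9 on day 1 without day 1 replicate 1 (-0.018), for S100a8 on day 7 without sham replicate 1 (0.52) and for S100a8 on day 21 without sham replicate 2 (-0.23). DESeq2 called S100a8 lower on days 7 and 60 (adjusted p = 0.031 and 0.0154). Comparisons between times after stroke, given below, use no sham library as their base.

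Prok2 had its peak on day 21, as Cxcl5 did. It had 0.119 and 0.0577 CPM in sham (2 and 6 counts), 12.9 and 6.50 on day 1, 3.10 and 5.77 on day 3, 0.336 and 0.316 on day 7, 44.2 and 31.8 on day 21, and 12.1 and 10.6 on day 60. The day 21 mean did not pass against that of day 60, the next highest (adjusted p = 0.618). No library after stroke overlapped with sham in Prok2, and the day 7 pair was the lowest after stroke. Against sham it was 110-fold higher on day 1 (log2 fold change 7.00 ± 0.67, adjusted p = 0.000447), 50.1-fold on day 3 (5.89 ± 0.66, 0.000345), 429-fold on day 21 (8.98 ± 0.71, 5.31e-05) and 128-fold on day 60 (7.23 ± 0.68, 0.000102). On day 7 it was 3.68-fold higher (2.11 ± 0.65, adjusted p = 0.0249). That call was lost without sham replicate 2 (0.252), day 7 replicate 1 (0.0617), day 7 replicate 2 (0.0973) or day 21 replicate 1 (0.0504), and with only the 2 groups in the fit (0.168).

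Ligands and calprotectin genes did not keep a fixed ratio. The ratio of the 4 ligand genes to S100a8 and S100a9, both summed per kilobase, was 0.0442 and 0.414 in sham, 7.70 and 4.87 on day 1, 2.33 and 0.584 on day 3, 13.3 and 8.84 on day 7, 18.5 and 14.0 on day 21, and 69.6 and 52.8 on day 60. Day 3 had the lowest ratios after stroke and day 60 the highest, and the libraries of neighbouring times did not overlap. On day 60 the ligand sum was 259 and 173 CPM per kb with 3.72 and 3.28 CPM per kb of the 2 S100 genes. On day 3 it was 304 and 90.7 CPM per kb with 130 and 155 CPM per kb. With 2 libraries a group an exact permutation test of the ratio cannot go below p = 0.333, so the ratio is given with no test.

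**Figure D3:**
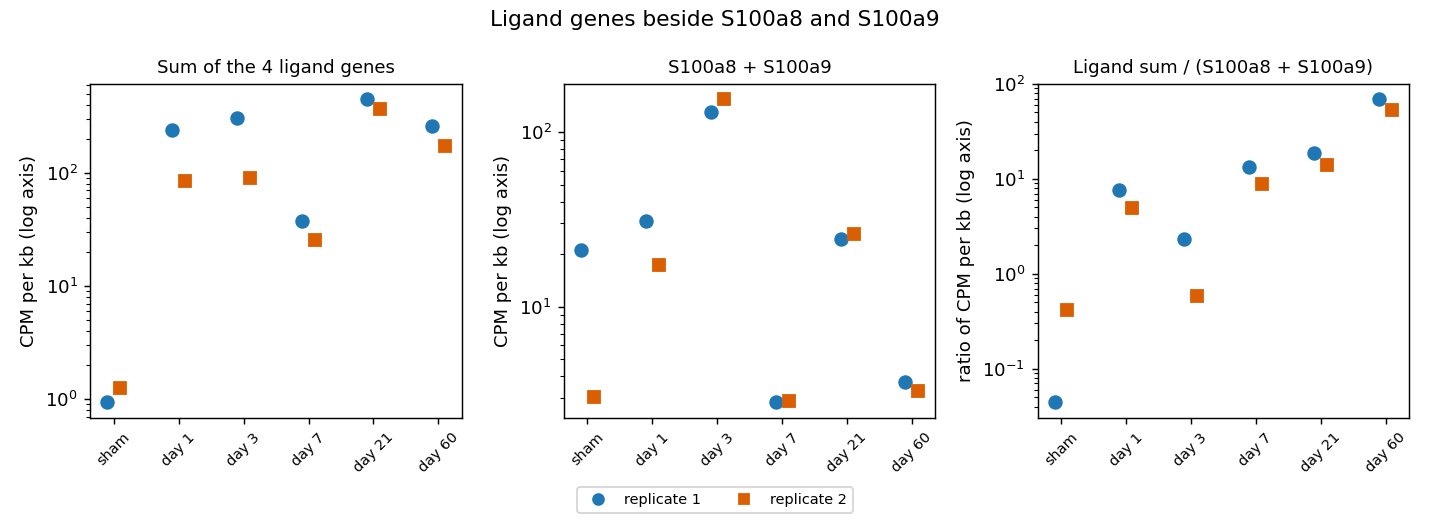
Left and middle, summed level of the 4 ligand genes and of S100a8 with S100a9 in CPM per kb on log axes; right, their ratio on a log axis. Circles are replicate 1 and squares replicate 2, from sham to day 60; the ratio is lowest after stroke on day 3 (2.33 and 0.584) and highest on day 60 (69.6 and 52.8).

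Between neighbouring times, the day 7 trough and the day 21 rise were the changes that passed. On day 3 against day 1, 0 of the 9 genes passed in edgeR (3.57% of all genes were called), 5 had an unadjusted p under 0.05, 3 passed with the replicate block and 4 in DESeq2. With the replicate block, Csf3 was lower on day 3 (log2 fold change -3.70, adjusted p = 0.0146), and Csf3r (2.001, 0.0308) and S100a8 (2.83, 0.0355) were higher. Without either sham library 1 gene passed.

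On day 7, 6 of the 9 genes were lower than on day 3, where 6.29% of all genes were called and 3.22% were called lower. The falls were 5.69 ± 0.95 on the log2 scale for S100a8 (adjusted p = 0.0136), 5.59 ± 0.90 for S100a9 (0.0127), 4.65 ± 1.16 for Csf3 (0.0478), 4.02 ± 0.55 for Cxcl5 (0.0102), 3.78 ± 0.56 for Prok2 (0.0115) and 3.71 ± 0.74 for Cxcl2 (0.0225). Cxcl1 (-2.15 ± 0.60, adjusted p = 0.061) and Cxcr2 (-4.88 ± 1.53, 0.0857) did not pass, and both did with the replicate block and in DESeq2. Csf3r differed by 0.56 ± 0.48 (0.517). None of the 6 passed without day 7 replicate 1, without day 7 replicate 2 or with only the 2 groups in the fit, settings under which 1, 0 and 0 of all genes were called. Cxcl2 was also lost without day 3 replicate 1 (adjusted p = 0.075), and Csf3 without any of sham replicates 1 and 2, day 3 replicate 1 and day 21 replicates 1 and 2 (0.0556 to 0.153).

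On day 21 Cxcl5 and Prok2 were higher than on day 7, where 0.441% of all genes were called and 0.243% were called higher. Cxcl5 was 1521-fold higher (log2 fold change 10.45 ± 0.70, adjusted p = 0.000428) and Prok2 116-fold (6.87 ± 0.63, adjusted p = 0.00323). The Cxcl5 call was made under each of the 18 alternatives, and the Prok2 call was lost without day 7 replicate 1 (adjusted p = 0.0683) or day 7 replicate 2 (0.124). With the replicate block 5 genes were higher, adding Csf3 (4.86, adjusted p = 0.0165), Cxcl1 (2.32, 0.0157) and S100a9 (3.56, 0.0325). DESeq2 called 7 and the fit of only the 2 groups 6.

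On day 60, 0 of the 9 genes passed against day 21, and 0% of all 15635 genes did. Of the 9, 5 had an unadjusted p under 0.05, all lower on day 60: Cxcl5 (-1.66 ± 0.47), Csf3r (-2.72 ± 0.52), S100a8 (-2.85 ± 0.85), S100a9 (-2.87 ± 0.79) and Prok2 (-1.75 ± 0.49). DESeq2 called 2 of them, Csf3r and S100a9.

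**Figure D4:**
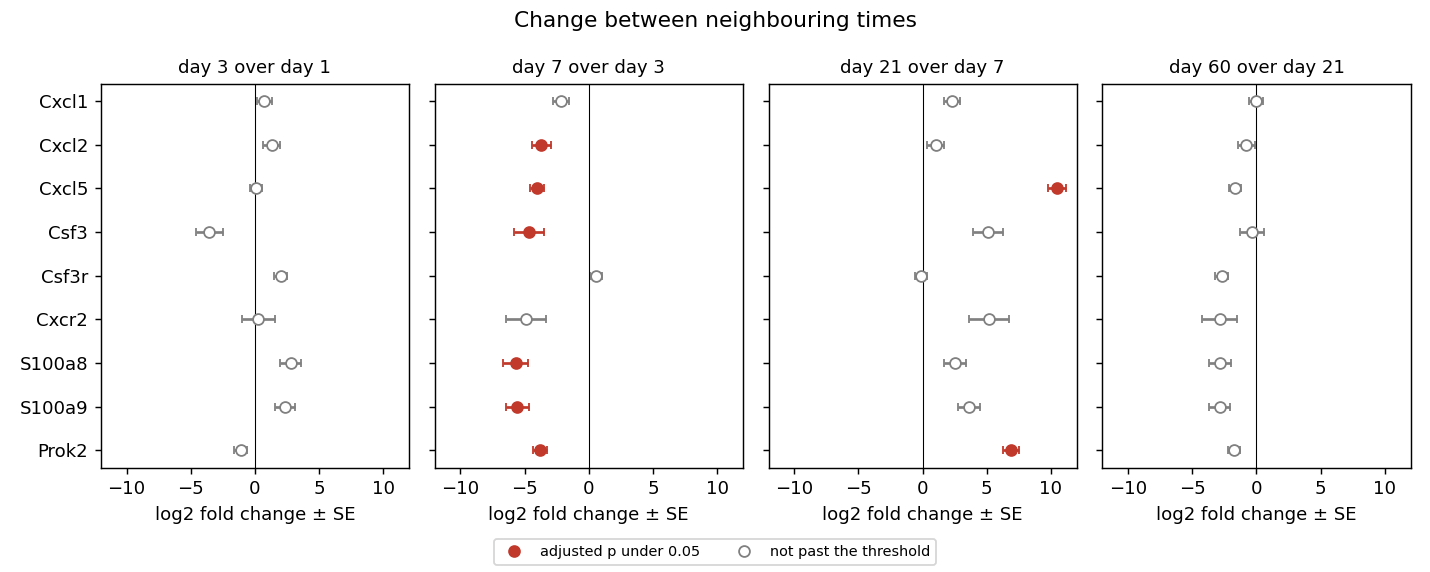
Log2 fold change with its standard error for each gene between neighbouring times, later over earlier. Filled red points passed an adjusted p under 0.05 in edgeR's quasi-likelihood F test and open points did not; day 7 over day 3 has 6 filled points below 0 and day 21 over day 7 has 2 above 0.

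Over wider steps, 7 of the 9 genes differed between day 7 and day 1, where 18.1% of all genes were called, 10.6% higher and 7.54% lower. Csf3r was higher on day 7 (2.56 ± 0.51, adjusted p = 0.00816). Csf3 (-8.19 ± 1.32, 0.00361), Prok2 (-4.89 ± 0.58, 0.000752), Cxcl5 (-3.94 ± 0.55, 0.00136), S100a9 (-3.25 ± 0.82, 0.0221), S100a8 (-2.89 ± 0.85, 0.041) and Cxcl2 (-2.41 ± 0.70, 0.039) were lower. Without day 1 replicate 1, day 7 replicate 1 or day 7 replicate 2 the number called was 4, 3 and 4. Cxcl2 was lost without any one of those 3 libraries or of the 4 libraries of days 21 and 60 (adjusted p 0.0503 to 0.217). S100a8 was lost without any one library after stroke (0.0527 to 0.214), S100a9 without day 1 replicate 1 or either day 7 library (0.0885 to 0.134), and Csf3r without day 1 replicate 2 (0.0501) or day 7 replicate 1 (0.0514).

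On day 60 Cxcl5 was 28.7-fold higher than on day 1 (4.85 ± 0.54, adjusted p = 0.000904) and S100a8 was lower (-3.23 ± 0.86, adjusted p = 0.0441), where 9.12% of all genes were called, 5.78% higher and 3.35% lower. With the replicate block 5 genes passed, adding Csf3 (-3.51, adjusted p = 0.00931), Cxcl2 (-2.05, 0.0429) and S100a9 (-2.36, 0.0483) as lower. S100a8 was lost without any one library after stroke (adjusted p 0.0555 to 0.185), with upper-quartile scaling (0.052) and with only the 2 groups in the fit (0.113).

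Other neutrophil genes were read beside these results. Of 26 neutrophil markers 21 were measured, and Ly6g was among those absent from the deposited counts. Their summed level was 24.9 and 12.9 CPM in sham, 109 and 77.3 on day 1, 222 and 151 on day 3, 160 and 164 on day 7, 509 and 742 on day 21, and 640 and 759 on day 60. On day 60, 92.2% and 95.3% of it was Mmp9, a gelatinase, and Hp, the haptoglobin gene, which other cells also express. Of 20 markers tested, 6 were higher on day 1, 7 on day 3, 6 on day 7 (with Hdc lower), 11 on day 21 and 4 on day 60. Of all genes 16.7%, 18%, 23.2%, 17.8% and 16.8% were called higher at these times, so the counts of days 7 and 60 lay near the background. On day 3 the granule genes ranged widely. Elane had 0 counts in both libraries, Mpo 0 and 0.110 CPM, Camp 0.443 and 0.447 CPM, Ngp 0.886 and 0.941 CPM and Prtn3 4.87 and 6.55 CPM. Mmp8 and Mmp9, which were called higher there, had 28.0 and 16.0 CPM and 56.1 and 60.5 CPM on day 3, against 1.14 and 0.135 CPM and 3.11 and 1.03 CPM in sham. Retnlg, a gene of circulating neutrophils, had 4.05 and 9.20 CPM on day 3 and 3.70 and 0 CPM in sham, so sham replicate 1, the library with the higher S100a8, also held more of it. Camp, Mpo, Prtn3, Clec4d, Il1r2, Asprv1 and Mrgpra2a were higher in sham replicate 2, and the other markers detected in sham in replicate 1. On day 21 Camp had 1.34 and 1.83 CPM, Ngp 6.44 and 4.30 CPM and Ltf 4.99 and 7.68 CPM, each above its day 3 libraries. Elane, Hdc, Mmp9 and Hp also had both day 21 libraries above both of day 3. Retnlg (1.34 and 1.25 CPM on day 21), Mmp8 (7.62 and 10.0 CPM), Cd177, Padi4, Clec4d and Ctsg had both below. In the remaining measured markers the day 3 and day 21 libraries overlapped. On day 60 Camp, Ngp and Ltf had 0, 0 and 0 CPM in replicate 1 and 0, 0 and 0.174 CPM in replicate 2. Prtn3 had 10.25 and 9.135 CPM on day 60, against 2.45 and 2.53 CPM in sham. In day 21 replicate 2 alone Elane reached 80.0 CPM and Prtn3 86.8 CPM, against 0.336 and 5.32 CPM in day 21 replicate 1. Elane and Prtn3 were among the 11 markers called higher on day 21, as were Mmp9 and Hp. The granule genes and the library were singled out after their values were seen, and the part of neutrophils in the levels of the 9 genes was not tested.

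Genes that act in the same pathway, taken from lists chosen with earlier results of these data known, moved in part with the ligands. Among other neutrophil signals, 12 of 17 measured genes were higher and 0 lower on day 1, 13 and 0 on day 3, 12 and 1 on day 7, 11 and 2 on day 21, and 8 and 1 on day 60. Of all genes 16.7%, 18%, 23.2%, 17.8% and 16.8% were called higher at these times, and 19.8% were called lower on day 7. Il6, a cytokine of the acute response, averaged 36.5 ± 20.2 CPM on day 1 and 0.0992 ± 0.113 CPM in sham (SD, n = 2 each; log2 fold change 9.31 ± 1.31, adjusted p = 0.00169) and passed at every time. Cxcl3, the relative that shares sequence with Cxcl2, averaged 56.1 ± 12.7 CPM on day 1 and 0.274 ± 0.388 CPM in sham (7.36 ± 1.79, adjusted p = 0.013), and did not pass on day 7, 21 or 60. Tnf peaked on day 3, with 114 ± 49.3 CPM against 0.322 ± 0.0337 CPM in sham (8.42 ± 0.73, adjusted p = 0.000139). Fpr1, a formyl peptide receptor of phagocytes, averaged 1.33 ± 1.43 CPM on day 1 and 0.0192 ± 0.0272 CPM in sham on 4 sham counts (5.45 ± 1.69, adjusted p = 0.0342).

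Of 12 adhesion genes through which neutrophils leave vessels, 7 were higher and 1 lower on day 1, 8 and 0 on day 3, 8 and 1 on day 7, 7 and 0 on day 21, and 6 and 1 on day 60. The shares of all genes called higher at these times were 16.7%, 18%, 23.2%, 17.8% and 16.8%, and 19.8% were called lower on day 7. Selp, the gene of P-selectin on activated endothelium and platelets, averaged 98.7 ± 3.34 CPM on day 1 and 0.0982 ± 0.0300 CPM in sham (log2 fold change 10.11 ± 1.11, adjusted p = 0.000663). It was lower on day 7 than on day 3 (-3.79 ± 0.79, adjusted p = 0.026), as Cxcl2 was. Sele, the E-selectin gene, was 7.16 ± 1.30 higher on the log2 scale on day 1 (0.00426), Pecam1, an endothelial junction gene, 3.40 ± 0.67 (0.00563), and Cd44, a hyaluronan receptor gene, 4.24 ± 0.42 (0.000461). Endothelial markers, 12 of 12 measured, held 0.677% to 1.05% of counts on day 1 and 0.155% to 0.206% in sham, and their part in the adhesion genes was not tested.

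Among genes induced by NF-kB or interleukin 17, 10 of 11 measured were higher and 0 lower at each of days 1, 3, 21 and 60, and 9 and 0 on day 7. Over all genes the shares called higher were 16.7%, 18%, 17.8% and 16.8% on those days and 23.2% on day 7. Lcn2, the lipocalin 2 gene, was low on day 7 and highest on day 21, as Cxcl5 and Prok2 were. It averaged 4.91 ± 0.857 CPM in sham, 308 ± 33.1 on day 1, 68.0 ± 32.1 on day 3, 6.16 ± 1.69 on day 7, 1728 ± 543 on day 21 and 1426 ± 102 on day 60 (SD, n = 2 each). It passed as lower on day 3 than on day 1 (-2.18 ± 0.44, adjusted p = 0.0255), a step in which Cxcl5 (0.08 ± 0.47, 0.972) and Prok2 (-1.11 ± 0.48, 0.29) did not pass. It was lower on day 7 than on day 3 (-3.46 ± 0.47, adjusted p = 0.0102) and higher on day 21 than on day 7 (8.13 ± 0.58, adjusted p = 0.000428). Cebpd and Bcl3, which encode transcription regulators, did not pass in the step from day 3 to day 7. Their log2 differences there were 0.16 ± 0.64 (adjusted p = 0.913) and -0.08 ± 0.33 (0.917). Mean CPM of Cebpd was 621 on day 1, 254 on day 3, 284 on day 7, 465 on day 21 and 558 on day 60. For Bcl3 it was 108, 82.6, 78.3, 119 and 74.5. Lif, an interleukin 6 family cytokine gene, was higher than sham on day 1 (5.94 ± 1.21, adjusted p = 0.00658) and did not pass on days 3, 7, 21 or 60.

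The monocyte-attracting CC chemokines, the set most like the ligands, were higher in 6 of 7 genes on days 1, 7, 21 and 60 and in 7 of 7 on day 3, with 0 lower. Over all genes the shares called higher were 16.7%, 23.2%, 17.8% and 16.8% on the former days and 18% on day 3. On day 1 the log2 fold changes against sham were 9.71 ± 0.85 for Ccl7 (adjusted p = 0.000336), 9.52 ± 0.75 for Ccl2 (0.000334), 6.21 ± 1.20 for Ccl5 (0.0053) and 4.94 ± 0.74 for Ccl3 (0.00214). On day 7 against day 3, 1 of these 7 genes was lower, Ccl4, where 3 of the 4 neutrophil ligand genes and 3.22% of all genes were. Whether the 2 sets differ in that step was not tested.

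Over the 12 libraries, Cxcl5 and Prok2 correlated at Pearson r = 0.901 in log2 CPM, S100a8 and S100a9 at 0.947, Cxcl1 and Cxcl2 at 0.863, and Cxcl5 and S100a8 at 0.0805. Among 11420 other genes, those most like each member were Ccl7 for Cxcl1 (r = 0.981), Il1b for Cxcl2 (0.977), Adm for Csf3 (0.987), Il16 for Csf3r (0.968) and Il1r2 for Cxcr2 (0.935). For Cxcl5 they were Entpd3 (0.950), Lcn2 (0.944) and Saa3 (0.939), and for Prok2 Slc7a11 (0.951), Lcn2 (0.951) and Cd151 (0.931). Within that search S100a8 and S100a9 had no partner as close: the nearest were Hspb6 (0.837) and Il1r2 (0.762). Among the 9 genes S100a9 also correlated with Cxcr2 at 0.779. The libraries share groups, replicate depth and cell make-up, so these values describe the 12 libraries only.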

How the data were processed

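The authors deposited raw counts per gene symbol, 1 column per library. Reads were handled with HTSeq 0.6.1, Bowtie2 2.3.4.2 and the mm10 build, per the submitters' processing notes. Which annotation and strand setting were used, and how multiply mapped reads were treated, is not given in the sources used here. The series table and the library files were identical in 189288 of 189288 values. The analysis of these counts used edgeR 4.0.16 (R 4.3.3), with filterByExpr at a minimum count of 10, TMM scaling, and 1 quasi-likelihood fit of all 12 libraries with a coefficient per group (6 residual degrees of freedom). Benjamini-Hochberg adjustment ran over 15635 genes, and SE is the size of the log2 fold change divided by the square root of F. Every adjusted p comes from this test unless DESeq2 1.42.0 or another setting is named. The procedure was tested on simulated data. Exact permutation of 2 against 2 libraries cannot go below p = 0.333. Counting intervals and floors cover counting error only.

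Alternatives were other size factors, no filter, DESeq2, a fit of only the 2 groups compared, the replicate number as a block, and each library left out. The difference of replicate 2 from replicate 1 was alike across groups (r = 0.319 to 0.713 over the 15 possible pairs, each above 0.1). The main fit did not pair same-numbered libraries, so its p-values take no account of this. Pairing was used only in the alternative with the replicate block, and blocked values stand beside results they change. The pairing comes from the data, since the labels say nothing of it, and number and depth cannot be told apart. The 9 genes and all lists were chosen with earlier results of these data known. Named genes are the 9, up to 4 of each list by size of change at day 1, and the 3 most correlated with each member. Sequences are from RefSeq (GRCm38.p6) and GENCODE, and 9 of 9 members were found in GENCODE.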

Additional observations from a re-analysis of the deposited data

Results flagged for a closer look

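In 17 cases the change against sham differed between 2 times by the direct edgeR test of those times. Groups of 2 libraries are too small for a test of single outlying libraries. Between day 7 and day 3 the difference on the log2 scale was -4.65 for Csf3, -3.71 for Cxcl2, -4.02 for Cxcl5, -3.78 for Prok2, -5.69 for S100a8 and -5.59 for S100a9. Between day 21 and day 7 it was 10.45 for Cxcl5 and 6.87 for Prok2. Between day 7 and day 1 it was -8.19 for Csf3, 2.56 for Csf3r, -2.41 for Cxcl2, -3.94 for Cxcl5, -4.89 for Prok2, -2.89 for S100a8 and -3.25 for S100a9. Between day 60 and day 1 it was 4.85 for Cxcl5 and -3.23 for S100a8. Day 7 is a part of 15 of the 17, and its 2 libraries also held the lowest share of astrocyte markers and the highest share of meningeal fibroblast markers, whose part was not tested.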

How the results depend on the processing

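Of 62 tests of single genes 50 passed with the settings of the report, and 32 of these passed under every alternative. The 62 are every test of the 9 genes against sham and only those tests between times that passed. Tests between times that did not pass are left out, so the 50 are no pass rate. None of the 50 changed sign. Of the 8 values that changed sign, Cxcl5 at day 7 against sham became 0.21 with the replicate block, 0.50 without sham replicate 1 and 0.18 without day 7 replicate 1. The other 5 sign changes came from leaving out a library. With 1 library left out, the log2 fold change against sham ranged from -0.676 to 0.497 for Cxcl5 at day 7, -0.018 to 2.72 for S100a9 at day 1, -2.30 to 0.206 for S100a9 at day 60, and for S100a8 from -2.73 to 0.525 at day 7, -0.226 to 3.03 at day 21 and -3.07 to 0.181 at day 60. These turns came without day 1 replicate 1 (S100a9 at day 1), sham replicate 2 (S100a8 at day 21) or sham replicate 1 (S100a8 at days 7 and 60, S100a9 at day 60). The number of the 9 genes called became 3 (replicate block) and 4 (DESeq2) for day 3 against day 1, 0 (only the 2 groups) for day 7 against day 3, and 5 (replicate block), 7 (DESeq2) and 6 (only the 2 groups) for day 21 against day 7. It became 2 (DESeq2) for day 60 against day 21, and 5 (replicate block), 5 (DESeq2), 1 (upper-quartile factors) and 1 (only the 2 groups) for day 60 against day 1. The cause of these shifts was not tested. With 1 library left out, it ranged from 5 to 8 at day 1, 8 to 9 at day 3, 3 to 6 at day 7, 6 to 9 at day 21 and 5 to 7 at day 60 against sham. Between times it ranged from 0 to 1 (day 3 against day 1), 0 to 8 (day 7 against day 3), 1 to 2 (day 21 against day 7), 0 to 0 (day 60 against day 21), 3 to 8 (day 7 against day 1) and 1 to 3 (day 60 against day 1). A group left with 1 library was assumed to vary like the others. The replicate block moved no other count by over 1.5 times. Other scaling moved the median of all genes by up to -0.18 on the log2 scale (day 7 against sham). Depth limits Cxcr2, Prok2 and Csf3 in sham and day 7, where replicate 1 held 0 to 5 counts of each.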
